A study of Rattus norvegicus with 93 samples.

Results

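The insulin-like growth factor (IGF) axis was followed through 9 listed genes, and all 9 were found by symbol or accession among the 15975 genes of the array. They were the ligands Igf1 and Igf2, the receptors Igf1r and Igf2r, and the binding proteins Igfbp2, Igfbp3, Igfbp4, Igfbp5 and Igfbp6, read by 15 of the 41090 probes. Holes of 4 mm (42 arrays) or 8 mm (51 arrays) were trephined in the skull roof of male rats aged 12 weeks, the 8 mm hole being the critical-size defect of the series. The bone disc was taken out, the dura mater under it stayed in place, neither defect received any further treatment, and the plug of healing tissue was cut out with the same trephine. At days 1, 3, 5, 7, 10, 14 and 21 after surgery the 4 mm groups held 3, 8, 11, 5, 4, 5 and 6 arrays and the 8 mm groups held 5, 11, 12, 5, 6, 6 and 6, each array 1 defect. The rat strain is not given in the sources used here, and no array of bone without a defect was used here. The earliest time, day 1, was the reference.

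IGF1 and IGF2 are secreted growth factors that signal mainly through the receptor tyrosine kinase IGF1R, while IGF2R, also the mannose 6-phosphate receptor, carries IGF2 to lysosomes and so clears it. The binding proteins hold the ligands in tissue fluid and matrix and can limit or prolong their action, and proteases such as pregnancy-associated plasma protein A release the ligands again. Bone matrix is a rich store of IGFs, osteoblasts make ligands and binding proteins, and Igf2 and Igfbp2 are also abundant in the meninges that line the skull.

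Values are log2 of the deposited ratio, in which most probes have a median of 1 over all arrays, so 0 is about a probe's own median and levels of different probes cannot be compared. The deposited ratio has a floor of 0.01 (log2 -6.64), at which 13.4% of all values stood. Among the members' main probes the floor was reached by Igfbp2 on 4 arrays and by Igf1, Igf2 and Igfbp4 on 1 array each. The median level was below -0.7 on 7 arrays (1 each of 4 mm days 1 and 10 and 8 mm day 1, and 2 each of 8 mm days 3 and 10). The mean of 7 brain markers was above 2 on 8 arrays (3 of 4 mm day 21, 2 of 8 mm day 7, and 1 each of 4 mm day 14 and 8 mm days 5 and 14). All 10 markers of osteoblasts and osteocytes were measured and none stood at the floor on all arrays of a group. Of these, 5 of 10 were higher at day 21 than at day 1, beside 13.4% of all genes. Skeletal muscle markers ran against the days: their mean log2 value was 4.90 and 3.75 at day 1 in 4 and 8 mm defects and -2.33 and -2.75 at day 21. Of these, 9 of 9 were lower, beside 12.8% of all genes. In such bulk samples fewer cells of a type and less RNA per cell cannot be told apart. The labels do not tell whether every array came from a separate animal, so p-values measure only the spread between these samples, and the number of arrays limits the precision.

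By their main probes, Igf2, Igfbp2 and Igfbp5 went through the largest changes of the 9 genes. Their means over both sizes went from far below their medians at day 1 to well above them at days 14 and 21. Igfbp2 in 4 mm defects at day 14 still had a median of 0.13. The other Igfbp5 probe had a mean over both sizes of -0.10 at day 21. By limma with Benjamini-Hochberg adjustment over all genes, 3, 5 and 6 of 9 members were higher than at day 1 at days 3, 5 and 7, beside 5.97%, 17.3% and 16.6% of all genes. At days 10, 14 and 21 the members higher were 6, 5 and 4, beside 10.4%, 12.6% and 13.4% of all genes. Igfbp3 at day 21 was the 1 member called lower (12.8% of all genes were). Igf2r, Igfbp4 and Igfbp6 made up the 3 at day 3, Igf2 and Igfbp5 joined at day 5 and Igfbp2 at day 7. Over the 7 days together 7 of 9 members changed in 4 mm defects (33.5% of all genes) and 8 of 9 in 8 mm defects (40.2%), by limma with an F test. All comparisons with day 1 share its 8 arrays. The members' median log2 change from day 1 was 1.07, 1.48, 1.30, 1.26, 0.87 and 0.73 at days 3 to 21, beside 0.20, 0.34, 0.25, -0.06, -0.06 and -0.18 for all genes. Centring each array moved the median of all genes at days 3, 5 and 7 to 0.02, 0.01 and -0.05, and no member's called change turned its direction under centring or quantile normalization. Without the day 1 array of rat 13 in 4 mm defects, which is 1 of the arrays of low level, the count at day 3 was 1 (Igfbp6).

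The stretches of 250 bases before the annotated transcription starts of the 3 genes with the largest changes are shown because Igf2 and Igfbp2 also varied together from array to array (below), and because Igfbp2 and Igfbp5 are direct neighbours on chromosome 9 of the GRCr8 assembly. They are from RefSeq (GRCr8), read 5′ to 3′ on the gene's strand, with GGGCGG, the core of a GC box, in capitals.
Igf2 (upstream of 2 annotated starts, chr1:207253981-207254230, minus strand): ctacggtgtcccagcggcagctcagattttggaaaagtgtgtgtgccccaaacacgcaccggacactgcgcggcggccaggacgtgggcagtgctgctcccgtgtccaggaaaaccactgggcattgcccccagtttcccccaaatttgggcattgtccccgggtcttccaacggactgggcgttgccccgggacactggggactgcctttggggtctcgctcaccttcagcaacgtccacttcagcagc
Igf2 (downstream of 2 annotated starts, chr1:207250476-207250725, minus strand): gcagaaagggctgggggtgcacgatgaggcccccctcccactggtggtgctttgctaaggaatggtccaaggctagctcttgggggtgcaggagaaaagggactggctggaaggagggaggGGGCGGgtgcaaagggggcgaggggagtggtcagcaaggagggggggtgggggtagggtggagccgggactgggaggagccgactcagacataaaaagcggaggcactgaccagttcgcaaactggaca
Igfbp2 (chr9:81864561-81864810, plus strand): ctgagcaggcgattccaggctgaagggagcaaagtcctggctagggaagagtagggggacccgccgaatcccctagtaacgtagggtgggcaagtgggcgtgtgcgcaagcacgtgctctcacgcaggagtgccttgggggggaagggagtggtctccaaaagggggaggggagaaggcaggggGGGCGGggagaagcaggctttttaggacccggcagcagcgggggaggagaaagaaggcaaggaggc
Igfbp5 (chr9:81914188-81914437, minus strand): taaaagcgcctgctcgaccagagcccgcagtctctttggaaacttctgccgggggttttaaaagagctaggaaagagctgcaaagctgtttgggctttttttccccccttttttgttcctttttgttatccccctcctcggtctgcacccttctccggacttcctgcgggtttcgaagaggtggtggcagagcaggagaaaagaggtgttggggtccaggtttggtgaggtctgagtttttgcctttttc
GGGCGG was searched on both strands and occurred once in the downstream Igf2 and once in the Igfbp2 stretch and not in the upstream Igf2 stretch or that of Igfbp5. Of 33469 such stretches, 30.5% held it. Neither TATAAA (in 12.9% of stretches) nor CCAAT (in 34.0%) was found in any of these 4 on either strand. The upstream and downstream stretches of Igf2 and that of Igfbp2 held 62.4%, 63.6% and 64.0% G and C and that of Igfbp5 51.6%, beside a median of 51.2%.

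Igf2, the ligand of fetal growth that is also stored in adult bone matrix, rose most. At day 1 its log2 values (probe A_44_P1037953) were -5.93, -3.68 and -3.25 in 4 mm defects, and -6.64, -4.63, -4.14, -2.56 and -1.81 in 8 mm defects. The lowest, median and highest values were -4.26, -3.54 and -2.43 in 4 mm and -4.56, -3.70 and 0.72 in 8 mm defects at day 3, and -4.38, -2.59 and 0.19 against -3.59, -1.22 and 1.19 at day 5. Both early days overlapped day 1 in both sizes. Above every day 1 array of their size were 3 of 8 and 4 of 11 arrays of 4 and 8 mm defects at day 3, and 8 of 11 and 8 of 12 at day 5. At day 7 the 4 mm arrays stood at -2.57, -1.97, 0.50, 1.32 and 2.95 and the 8 mm arrays at 1.14, 1.16, 1.52, 2.13 and 2.23. The 5 arrays of 8 mm defects were thus close together and above every day 1 array, while 2 of the 5 arrays of 4 mm defects were still within the day 1 range of 8 mm defects, though above the day 1 arrays of their own size. Later values were -1.33, 0.43, 0.67 and 0.82 in 4 mm defects at day 10, beside a lowest, median and highest of 1.33, 3.35 and 3.68 in 8 mm defects. At day 14 they were 1.51, 1.79, 2.12, 2.30 and 3.38, beside 1.83, 2.96 and 3.84, and at day 21 0.54, 1.63 and 2.16, beside 2.19, 2.80 and 4.04. From day 10 on no array of either size overlapped day 1. The change from day 1 was 2.29 ± 0.57 (SE) at day 5 (limma, adjusted p = 0.00146), 4.96 ± 0.65 at day 7 (adjusted p = 3.57e-09) and 6.69 ± 0.64 at day 14, a 104-fold ratio (adjusted p = 3.21e-14, higher in 11 of 11 arrays). The step from day 5 to day 7, 2.68 ± 0.51, also passed (adjusted p = 0.000219), whereas day 3 against day 1 did not (1.09, adjusted p = 0.358). At day 21 the ratio to day 1 was 82.1-fold, and day 21 differed from day 7 by 1.40 (adjusted p = 0.0833). This passed with each array centred (1.67, adjusted p = 0.0278) and without rat 14 of 4 mm day 7 (1.76, adjusted p = 0.0303). With values under a ratio of 0.25 raised to 0.25, the day 5 change was 0.68 and did not pass (adjusted p = 0.206), the changes at days 14 and 21 were 4.55 and 4.22 (adjusted p = 9.25e-14 and 6.34e-13), and day 21 against day 7 passed (1.34, adjusted p = 0.010).

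**Figure D1:**
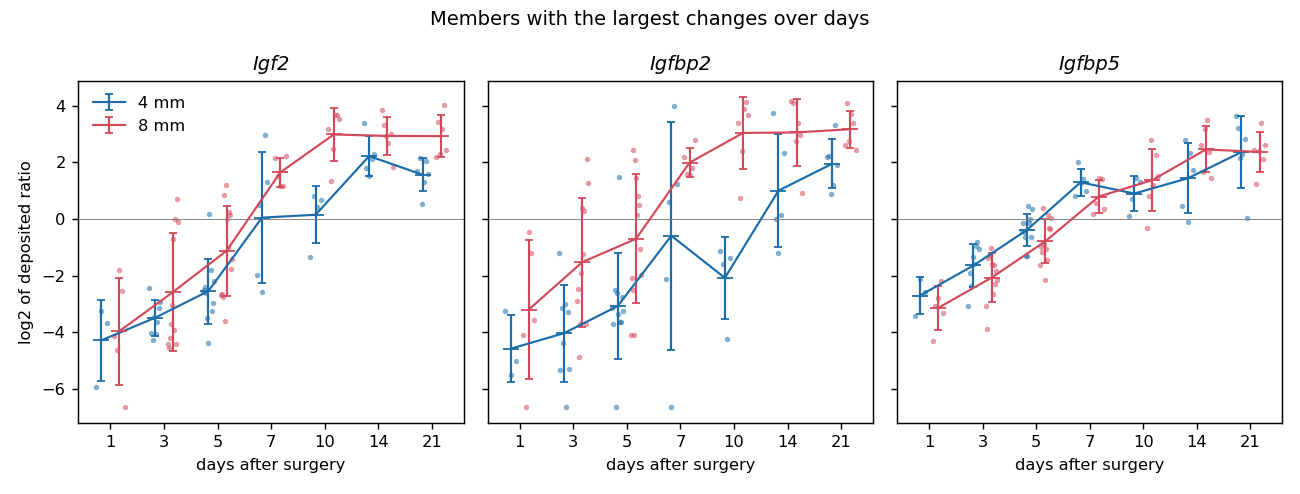
Log2 of the deposited ratio of Igf2, Igfbp2 and Igfbp5 against days after surgery (days evenly spaced), in 4 mm (blue) and 8 mm (red) defects. Points are arrays, horizontal marks and lines group means, and bars 1 SD. The group means lie between -4.58 and -2.71 at day 1 and between 1.56 and 3.17 at day 21, and Igfbp2 in 4 mm defects lies below 8 mm defects at day 10 without overlap.

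Igf1, the growth hormone-dependent ligand that osteoblasts, macrophages and muscle make locally, was read by 4 probes that did not run together. The probe with the largest interquartile range (A_44_P421499) gave group means between -1.07 and 0.87 and passed no test of a day or of the days together (adjusted p = 0.921 in 4 mm and 0.167 in 8 mm defects by the F test). Its values at day 21 ran from -2.56 to 2.17 in 4 mm defects and from -6.64 to 3.06 in 8 mm defects, the widest spread of any Igf1 group. In contrast A_44_P126021 had a mean of -2.35 ± 0.75 (SD, n = 3) in 4 mm and -1.99 ± 1.25 (n = 5) in 8 mm defects at day 1 and means between -0.62 and 0.52 at all later days. Tested over all probes, it was higher than at day 1 by 1.70, 2.47, 2.36, 2.28, 2.18 and 1.88 at days 3, 5, 7, 10, 14 and 21 (limma, adjusted p from 2.51e-09 at day 5 to 0.000152 at day 3), in 23 of 23 arrays at day 5. A_44_P366723 was higher too, by 1.33 at day 5 to 2.05 at day 10 (adjusted p from 4.20e-07 to 0.000421). A_44_P421502 passed for no day against day 1. With the mean of the 4 probes as the value of the gene, Igf1 was higher than at day 1 by 1.0, 1.22, 1.42, 1.30, 1.22 and 1.12 at days 3 to 21 (adjusted p from 2.40e-05 to 0.00251), and the days together passed in 4 mm (adjusted p = 0.0155) and 8 mm defects (adjusted p = 0.000314). For A_44_P421499 itself, day 5 passed with only the groups compared in the fit (adjusted p = 0.00246), and day 21 (1.17, adjusted p = 0.0185) and the days together in 8 mm defects (adjusted p = 0.00460) passed with low values raised to 0.25. Both probes that were called match the accessions of current Igf1 transcripts, whereas A_44_P421499 and A_44_P421502 carry the same older accession and were placed by their symbol. Across the 93 arrays, as a description, the values of A_44_P126021 and A_44_P366723 had a Pearson r of 0.706 and every other pair had r between 0.123 and 0.351.

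**Figure D2:**
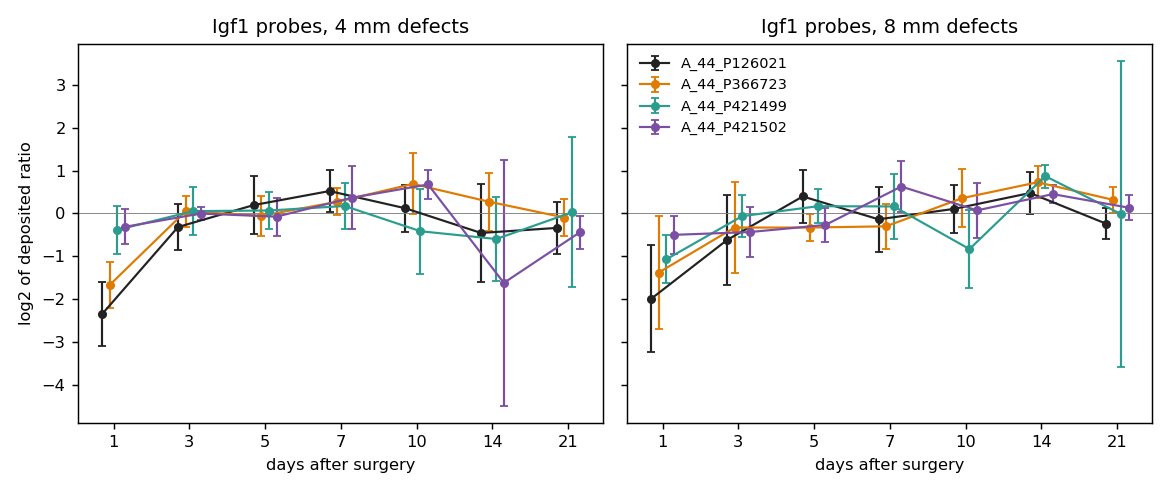
Group means of the 4 Igf1 probes (log2 of the deposited ratio) against days after surgery (days evenly spaced) in 4 mm and 8 mm defects, with bars of 1 SD over the arrays of a group. A_44_P126021 and A_44_P366723 have day 1 means between -2.35 and -1.38, while the other probes start between -1.07 and -0.31. The longest bars, A_44_P421502 at 4 mm day 14 and A_44_P421499 at 8 mm day 21, are groups with 1 array at the floor.

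The receptors moved less than Igf2, Igfbp2 and Igfbp5. Igf1r, the signalling receptor, had group means between -1.15 and 0.78. It changed over the days in 4 mm (adjusted p = 0.0120) and 8 mm defects (adjusted p = 0.00539) by limma's F test, but no single day differed from day 1 with an adjusted p under the threshold. The lowest group was 4 mm day 14, where the arrays read -1.92, -1.48, -1.36, -0.78 and -0.21, and the highest was 8 mm day 3, where 1 array stood at 5.00 and the median was 0.41. That array was never left out on its own, since single arrays were left out only of groups of 3 to 5. The call in 4 mm defects was lost without rat 18 of 4 mm day 14 (adjusted p = 0.0525) and with quantile normalization (adjusted p = 0.106), and that in 8 mm defects with only the groups compared in the fit (adjusted p = 0.0607). In such a fit day 5 against day 1 passed (0.43, adjusted p = 0.0418).

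Igf2r, the receptor that clears IGF2, was higher than at day 1 by 0.89 ± 0.29 at day 3 (adjusted p = 0.0407). It was higher by 1.48 ± 0.28 at day 5, a 2.80-fold ratio (adjusted p = 2.00e-05, higher in 23 of 23 arrays), and by 1.23 ± 0.32 at day 7 (adjusted p = 0.00268), all by limma. At days 10 and 14 it was higher by 0.88 and 0.87 (adjusted p = 0.0474 and 0.0361). At day 21 it had a difference of 0.30 that did not pass (adjusted p = 0.516). From day 7 to day 21 it fell by 0.93 ± 0.28 (adjusted p = 0.0162, lower in 12 of 12 arrays), a call lost with quantile normalization (-0.61, adjusted p = 0.163) and without the 8 arrays of high brain score (-0.84, adjusted p = 0.0819). At day 1 its arrays had read -1.93, -0.63 and -0.57 in 4 mm and -2.59, -1.08, -0.81, -0.60 and -0.08 in 8 mm defects. At day 5 the lowest, median and highest were -0.32, 0.45 and 1.08 in 4 mm and 0.01, 0.40 and 1.04 in 8 mm defects. Within each size every array of day 5 lay above every array of day 1. The calls at days 3, 10 and 14 were lost without rat 13 of 4 mm day 1 (0.67, 0.66 and 0.65, adjusted p = 0.340, 0.216 and 0.193) or rat 11 of 8 mm day 1 (0.70, 0.69 and 0.68, adjusted p = 0.196, 0.133 and 0.113). The day 3 and 10 calls were also lost without rat 16 of 8 mm day 1 (adjusted p = 0.0617 and 0.0630). Those of days 10 and 14 were lost too without rat 11, 12 or 13 of 4 mm day 10 (adjusted p from 0.0798 to 0.109) and rat 16, 18 or 20 of 4 mm day 14 (adjusted p from 0.0599 to 0.0711). With only the groups compared in the fit days 3, 10 and 14 did not pass (adjusted p = 0.230, 0.281 and 0.146), nor did day 14 without the 7 arrays of low level (0.46, adjusted p = 0.137).

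Among the binding proteins, Igfbp2, which binds IGF2 with high affinity, followed Igf2. Its day 1 values (probe A_44_P547185) were -5.50, -5.00 and -3.25 in 4 mm defects and -6.64, -4.08, -3.57, -1.22 and -0.48 in 8 mm defects. At day 7 they were -6.64, -2.12, 0.58, 1.24 and 3.99 in 4 mm and 1.56, 1.58, 1.81, 2.18 and 2.79 in 8 mm defects. The 4 mm arrays of day 7 spanned nearly the whole range of the gene, and those of 8 mm defects lay close together above day 1. At day 21 the lowest, median and highest values were 0.87, 2.03 and 3.31 in 4 mm and 2.44, 3.07 and 4.10 in 8 mm defects, all above every day 1 array. The change from day 1 did not pass at day 3 (1.11, adjusted p = 0.602) or day 5 (2.0, adjusted p = 0.0745). It was 4.59 ± 0.93 at day 7 (adjusted p = 9.85e-05), 5.91 ± 0.92 at day 14 (adjusted p = 4.22e-07) and 6.44 ± 0.90 at day 21, an 87.1-fold ratio (adjusted p = 2.45e-08), by limma. With low values raised to 0.25 the change at day 21 was 4.32 (adjusted p = 1.73e-08). Igfbp2 also rose from day 5 to day 7 by 2.59 ± 0.73 (adjusted p = 0.0134), a call lost without rat 14 of 4 mm day 7 (2.01, adjusted p = 0.0666). The day 5 change passed without rat 13 of 8 mm day 1 (2.34, adjusted p = 0.0363), and day 21 against day 7 (1.86, adjusted p = 0.112) passed without rat 14 of 4 mm day 7 (2.43, adjusted p = 0.0363).

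Igfbp5, the binding protein that adheres to bone matrix and is made in quantity by osteoblasts, climbed at a steadier pace. Its main probe (A_44_P264240, placed by its symbol) read -3.42, -2.57 and -2.13 in 4 mm defects and -4.31, -3.34, -3.07, -2.80 and -2.18 in 8 mm defects at day 1. By day 7 it read 0.80, 0.97, 1.25, 1.41 and 2.02 against 0.18, 0.35, 0.56, 1.42 and 1.43. Within each size every array of day 5 already lay above every array of day 1, narrowly in 8 mm defects (-2.16 against -2.18). From day 7 on neither size overlapped the day 1 arrays of either size. The sizes differed most at day 14 (1.02, 95% interval 0.01 to 2.03), which did not pass (adjusted p = 0.395). The group means were -2.71, -1.64, -0.39, 1.29, 0.90, 1.43 and 2.36 in 4 mm and -3.14, -2.07, -0.79, 0.79, 1.37, 2.45 and 2.36 in 8 mm defects over the 7 days. Against day 1 it was higher by 2.33 ± 0.35 at day 5 (adjusted p = 1.44e-07), 3.96 ± 0.40 at day 7 (adjusted p = 5.07e-13) and 5.28 ± 0.39 at day 21, a 38.9-fold ratio (adjusted p = 1.78e-19). It rose from day 3 to 5 (1.27, adjusted p = 0.000806), from day 5 to 7 (1.63, adjusted p = 0.000270) and from day 7 to 21 (1.32 ± 0.36, adjusted p = 0.00674), the last lost with quantile normalization (0.77, adjusted p = 0.356). With the mean of both Igfbp5 probes none of these steps passed (0.85, 0.52 and 0.89, adjusted p = 0.0581, 0.334 and 0.0846), and the change from day 1 to day 21 was 3.35 (adjusted p = 2.45e-10). The other Igfbp5 probe, A_44_P285534, had a Pearson r of 0.456 with the main probe over the 93 arrays and smaller differences from day 1. Tested over all probes these were 1.54 at day 5 (adjusted p = 0.0206), 0.95 at day 7 (adjusted p = 0.240), 2.26 at day 14 (adjusted p = 0.00159) and 1.41 at day 21 (adjusted p = 0.0489). From day 5 to day 7 it had a difference of -0.58 that did not pass. The day 3 difference of the main probe, 1.07 (adjusted p = 0.0609), passed without rat 17 of 4 mm day 1 (adjusted p = 0.0494), rat 14 of 8 mm day 1 (adjusted p = 0.0362) or rat 17 of 4 mm day 14 (adjusted p = 0.0499).

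Igfbp6, which prefers IGF2 to IGF1, rose early and then stayed level. Its day 1 values (probe A_44_P378799) were -3.09, -2.21 and -1.99 in 4 mm and -4.71, -2.57, -1.53, -1.43 and -1.26 in 8 mm defects. At day 5 the lowest, median and highest were -0.07, 0.30 and 1.13 in 4 mm and -1.43, 0.01 and 0.83 in 8 mm defects. The 4 mm groups of these days were apart, and the 8 mm groups overlapped slightly. The change from day 1 was 1.63 ± 0.39 at day 3 (adjusted p = 0.00241), 2.59 ± 0.37 at day 5, a 6.0-fold ratio (adjusted p = 5.07e-08). It was 2.31, 2.24 and 2.71 at days 7, 10 and 14, and 2.68 ± 0.41 at day 21 (adjusted p = 3.55e-07), by limma. It rose from day 3 to day 5 (0.96, adjusted p = 0.0308), and the differences between later neighbouring days lay between -0.28 and 0.47 and did not pass.

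Igfbp4, a binding protein mostly known for holding back IGF action until it is cleaved, was higher than at day 1 from day 3 to day 10 and not after. Its day 1 values (probe A_44_P515317) were -1.02, -0.33 and -0.25 in 4 mm and -3.26, -1.67, -1.16, -0.80 and -0.78 in 8 mm defects. The lowest, median and highest were 0.25, 0.46 and 1.07 in 4 mm and -0.37, 0.16 and 0.77 in 8 mm defects at day 3, and -3.87, -1.17 and -0.27 against -3.20, -1.06 and -0.18 at day 21. The arrays of day 3 lay above those of day 1 within each size, and those of day 21 overlapped day 1. It differed from day 1 by 1.37 ± 0.38 at day 3 (adjusted p = 0.0137), by 1.13, 1.30 and 1.26 at days 5, 7 and 10 (adjusted p = 0.0214, 0.0203 and 0.0329), and by -0.38 at day 21 (adjusted p = 0.534). From day 7 to day 21 it fell by 1.68 ± 0.38, a 3.21-fold ratio (adjusted p = 0.00105, lower in 12 of 12 arrays). The other probe, A_43_P16767, had differences from day 1 of 1.2, 1.07, 1.18 and 1.12 at days 3, 5, 7 and 10 (adjusted p = 0.00364, 0.00316, 0.00447 and 0.0109). It was also higher at day 14 (0.90, adjusted p = 0.0320), while its fall from day 7 to 21 did not pass (-0.77, adjusted p = 0.0610). For the main probe the calls of days 5 and 7 were lost with each array centred (0.81 and 1.01, adjusted p = 0.102 and 0.0555). Those of days 3 to 10 were lost without rat 13 of 4 mm day 1 (1.25, 1.01, 1.18 and 1.14, adjusted p = 0.0862, 0.108, 0.0762 and 0.102). Those of days 5, 7 and 10 were lost without rat 12 of 8 mm day 1 (adjusted p = 0.0707, 0.0553 and 0.0841), and that of day 10 without rat 11 or 13 of 4 mm day 10 (adjusted p = 0.0552 and 0.0553) and with only the groups compared (adjusted p = 0.0868). Without the 7 arrays of low level days 3, 5 and 7 did not pass (adjusted p = 0.0942, 0.130 and 0.0842).

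Igfbp3, the main carrier of IGFs in blood, was the only member with a lower level at day 21 than at day 1 by the test (-1.0 ± 0.35, adjusted p = 0.0245, lower in 11 of 12 arrays). It rose from day 5 to day 7 by 1.04 ± 0.28 (adjusted p = 0.00958) and fell from day 7 to day 21 by 1.27 ± 0.32 (adjusted p = 0.00319, lower in 12 of 12 arrays). The group means at days 5, 7 and 21 were -0.31, 1.00 and -0.55 in 4 mm and -0.21, 0.57 and -0.43 in 8 mm defects, so that of these 3 days both sizes stood highest at day 7. Its 2 probes had a Pearson r of 0.961 over the arrays and passed in the same 3 comparisons (with A_42_P627998 adjusted p = 0.0415, 0.00974 and 0.00423). The day 21 call against day 1 was lost without rat 17 or 18 of 4 mm day 1 (adjusted p = 0.0707 and 0.0945) or rat 16 of 8 mm day 1 (adjusted p = 0.0564), with only the groups compared in the fit (adjusted p = 0.0658) and without the 8 arrays of high brain score (-0.89, adjusted p = 0.0536). Over the days together it missed the threshold in 4 mm defects (F test, adjusted p = 0.0546) and passed with each array centred (adjusted p = 0.0160) and without rat 13 of 4 mm day 1, rat 11 of 8 mm day 1, rat 13 of 4 mm day 7, rat 10 of 4 mm day 10, or rat 16 or 17 of 4 mm day 14 (adjusted p from 0.0228 to 0.0477). The difference at day 5, -0.77 (adjusted p = 0.0748), passed with each array centred (-1.10, adjusted p = 0.000446) and without rat 13 of 4 mm day 1 (-1.0, adjusted p = 0.0450) or rat 11 of 8 mm day 1 (-0.92, adjusted p = 0.0381). That at day 3, -0.70, passed with each array centred (-0.89, adjusted p = 0.0158) and with array weights (adjusted p = 0.0407).

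**Figure D3:**
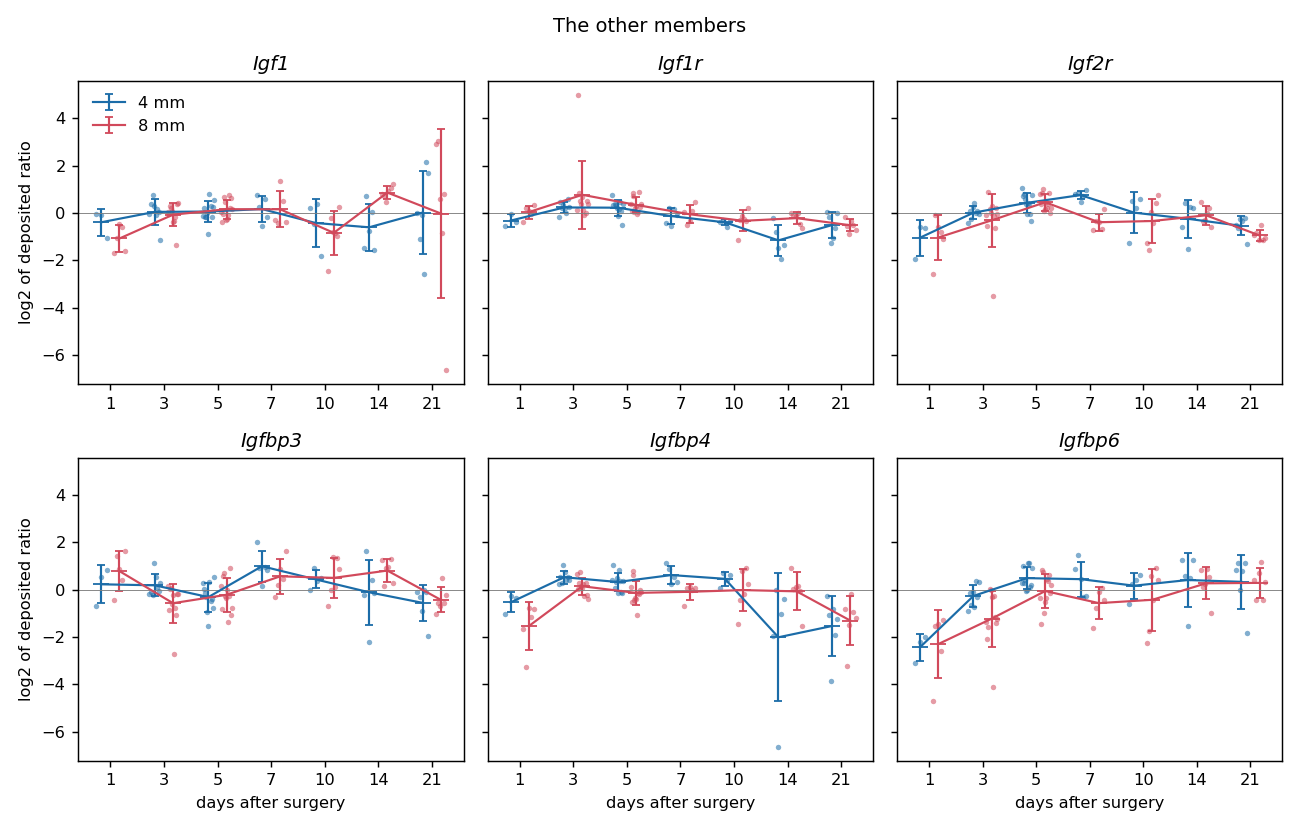
Log2 of the deposited ratio of the 6 other members against days after surgery (days evenly spaced), in 4 mm (blue) and 8 mm (red) defects. Points are arrays, horizontal marks and lines group means, and bars 1 SD. Igfbp6 goes from means of -2.43 and -2.30 at day 1 to means between -0.56 and 0.49 from day 5 on. Igfbp4 has means of -1.53 and -1.30 at day 21, and single arrays at the floor of -6.64 widen Igf1 at 8 mm day 21 and Igfbp4 at 4 mm day 14.

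Between neighbouring days members were called up to day 7 and not later. From day 3 to 5, 2 of 9 members were higher (Igfbp5 and Igfbp6, with 3.32% of all genes higher), and from day 5 to 7, 4 were higher (Igf2, Igfbp2, Igfbp3 and Igfbp5, with 4.73% of all genes higher). No member passed from day 7 to 10 (0.213% of all genes), day 10 to 14 (1.03%) or day 14 to 21 (1.52%), where 0, 2 and 2 members had an unadjusted p under 0.05 in limma. Igfbp4 from day 10 to 14 (-1.26, adjusted p = 0.0939) passed without rat 16 or 20 of 4 mm day 14 (-1.51 and -1.47, adjusted p = 0.0302 and 0.0368). Igfbp3 from day 14 to 21 (-0.84, adjusted p = 0.161) passed without rat 17 of 4 mm day 14 (-1.10, adjusted p = 0.0307). From day 7 to 21, 1 member was higher (3.56% of all genes) and 3 were lower (12.9%), which were Igfbp5 and Igf2r, Igfbp3 and Igfbp4.

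The series set 8 mm against 4 mm defects, and Igf2 and Igfbp2 were the members that differed. Averaged over the 7 days, Igfbp2 was higher in 8 mm defects by 2.46 ± 0.43, a 5.51-fold ratio (limma, adjusted p = 0.000432), and Igf2 by 1.31 ± 0.30, a 2.48-fold ratio (adjusted p = 0.0253). These were 2 of 9 members, with 0.351% of all genes higher. The 8 mm mean lay above the 4 mm mean on 7 of 7 days for both genes, by 1.22 to 5.11 for Igfbp2 and by 0.33 to 2.83 for Igf2. Of the other 7 members none passed, with means over the days between -0.45 (Igfbp6, 95% interval -0.85 to -0.06) and 0.30 (Igf1r, 0.02 to 0.58). The Igf2 call was lost without rat 13 of 4 mm day 1 (1.19, adjusted p = 0.0553), and without the 7 arrays of low level (1.23, adjusted p = 0.0519). It was also lost without the 8 arrays of high brain score (1.26, adjusted p = 0.0568) and with quantile normalization (1.45, adjusted p = 0.0514).

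Day 10 held the widest gap. The 4 mm arrays of Igfbp2 read -4.25, -1.59, -1.36 and -1.12, and the 6 arrays of 8 mm defects had a lowest, median and highest value of 0.73, 3.53 and 4.13. These groups did not overlap. The difference was 5.11 ± 1.25, a 34.7-fold ratio (limma, adjusted p = 0.0375, higher in 6 of 6 arrays), and Igfbp2 was the 1 member of 9 that passed (0.263% of all genes did). It did not pass without rat 10, 11 or 12 of 4 mm day 10 (5.44, 5.28 and 4.39, adjusted p = 0.0530, 0.0572 and 0.185) or without the 7 arrays of low level, of which 3 are of day 10 (5.92, adjusted p = 0.0601). Nor did it pass with quantile normalization, array weights, only these groups in the fit or the less variable genes left out (adjusted p = 0.359, 0.164, 0.187 and 0.0847). The Igf2 groups of day 10 did not overlap either, and their difference of 2.83 ± 0.87 did not pass (adjusted p = 0.159) except with low values raised to 0.25 (adjusted p = 0.00680). At day 21 the Igf2 groups again lay apart (1.36, 95% interval -0.18 to 2.91, adjusted p = 0.398).

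At day 14 the 1 member of 9 that passed was Igfbp4 (1.94 ± 0.54, adjusted p = 0.0392, with 1.52% of all genes higher). The 4 mm arrays read -6.64, -1.97, -1.03, -0.38 and -0.01 and the 8 mm arrays ran from -1.53 to 0.91 around a median of 0.06, so that the groups overlapped. Without rat 17 of 4 mm day 14, the array at the floor, the difference was 0.78 (adjusted p = 0.617). It passed in 4 of 11 alternative settings, and the other probe, A_43_P16767, gave 0.25 (adjusted p = 0.911). The Igf1 probe A_44_P421502 differed at the same day (2.07 ± 0.48, adjusted p = 0.0135 over all probes), where its 4 mm group also held 1 array at the floor, and so did the mean of the 4 Igf1 probes (1.23, adjusted p = 0.0384), while the main Igf1 probe did not pass (1.47, adjusted p = 0.358). No member passed at day 1, 3 or 5 (0.00% of all genes each), at day 7 (0.369%) or at day 21 (2.40%), where 0, 3, 2, 2 and 0 members had an unadjusted p under 0.05 in limma. At day 7 the Igf2r groups did not overlap, with 4 mm arrays from 0.48 to 0.96 and 8 mm arrays from -0.72 to 0.16, and the difference of -1.15 ± 0.42 did not pass (adjusted p = 0.205). It passed with array weights (-1.23, adjusted p = 0.00260), as Igfbp6 did (-1.50, adjusted p = 0.0144), and without the 7 arrays of low level (-1.15, adjusted p = 0.00490). The interaction of size and day passed for 0 of 9 members (0.538% of all genes), with adjusted p from 0.177 (Igfbp4) to 0.866 (Igfbp6) and 1 member at an unadjusted p under 0.05.

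**Figure D4:**
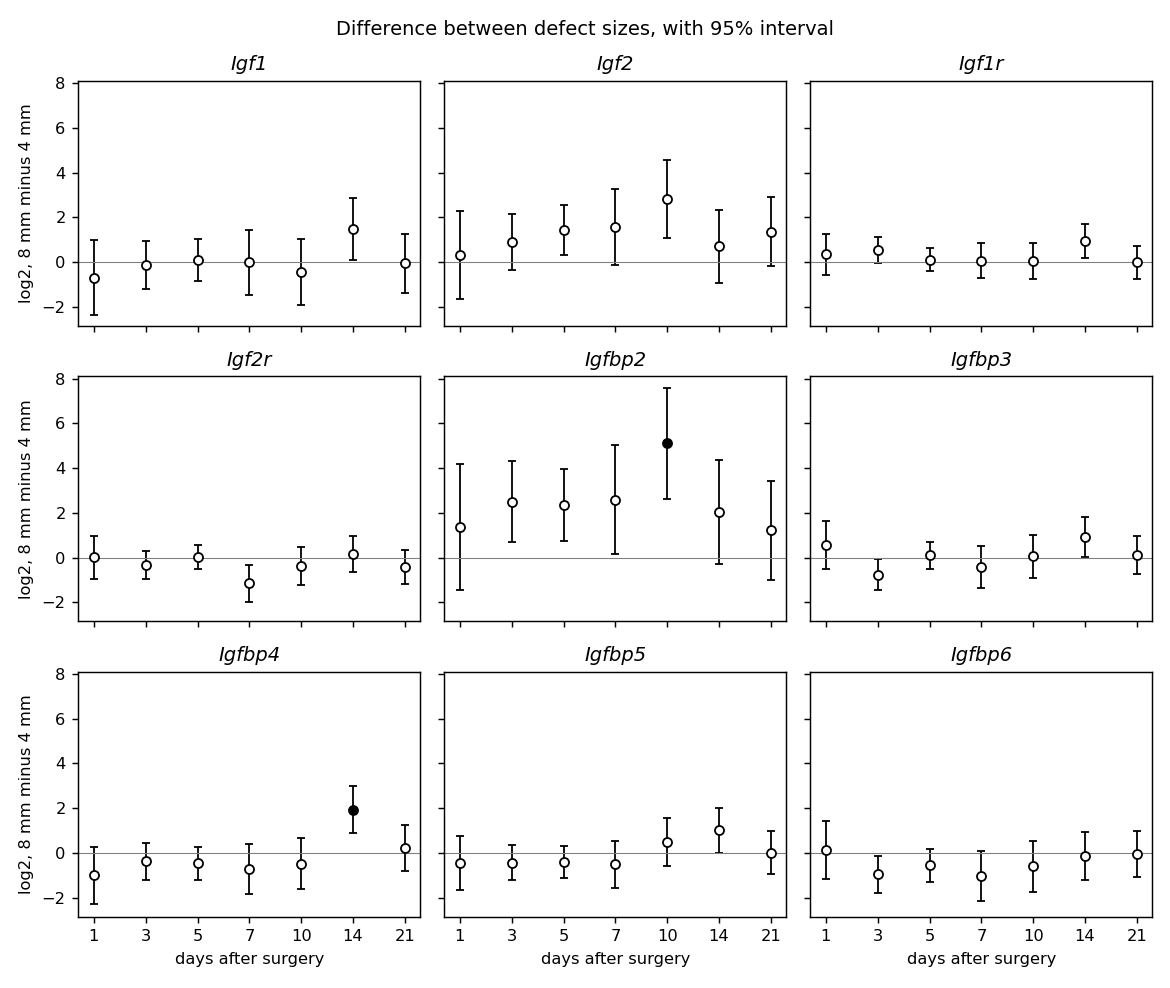
Difference between defect sizes (log2, 8 mm minus 4 mm) of each member against days after surgery (days evenly spaced), with the 95% interval of the limma fit; filled points passed at an adjusted p under 0.05. The points of Igf2 and Igfbp2 lie above 0 on all 7 days, and the 2 filled points are Igfbp2 at day 10 and Igfbp4 at day 14.

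Within groups, arrays high in Igf2 were also high in Igfbp2. Taking each array's deviation from its group mean, Pearson's r over the 93 arrays was 0.761 and Spearman's rho 0.718 (permutation within groups, p = 1e-05, the smallest that 100000 permutations can give, 2.67e-05 after adjustment over 8 relations), and r was 0.730 without the 2 arrays farthest from the median. At 4 mm day 7, where the spread was widest, rat 14 had the highest and rat 13 the lowest value of both genes. The mean of 7 markers of meninges and dura (Ptgds, Slc47a1, Slc6a13, Aldh1a2, Foxc1, Alx1 and Crabp2) moved with both. In deviations from the group mean its r was 0.716 with Igf2 (rho 0.629) and 0.731 with Igfbp2 (rho 0.654), each at the smallest p of the permutations (1e-05, adjusted 2.67e-05), and 0.684 and 0.704 without the 2 farthest arrays. The same 5 arrays of 4 mm day 7 read -1.25 (rat 13), -0.91, 0.16, 1.36 and 2.70 (rat 14) in this mean. Among marker means, Igf2 was related only to those of meninges, brain, and osteoblasts and osteocytes, and Igfbp2 only to that of meninges. Those of other cell types, such as fibroblasts and endothelium, were not related to either gene. Whether the relation is particular to meninges was thus not tested.

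The marker mean of meninges and dura also moved with day and with size. Its group means were -2.51, -1.21, -1.12, 0.41, -0.79, 0.51 and 1.05 over the days in 4 mm and -1.15, -0.51, -0.43, 1.04, 0.98, 1.13 and 1.43 in 8 mm defects. Arrays ranged from -3.24 to -1.62 at 4 mm day 1 and from -2.42 to 0.46 at 8 mm day 1, and from 0.51 to 1.78 and 0.58 to 2.02 at day 21. Against day 1, 1, 3, 6, 4, 5 and 6 of the 7 markers were higher at days 3, 5, 7, 10, 14 and 21. The shares of all genes were 5.97%, 17.3%, 16.6%, 10.4%, 12.6% and 13.4%. Over the mean of the days 2 of 7 were higher in 8 mm defects, beside 0.351% of all genes. At day 10 the 4 mm arrays ran from -1.71 to -0.18 and the 8 mm arrays from -0.46 to 2.67. Between sizes 1 of 7 markers was called there, beside 0.263% of all genes. None of the 7 stood at the floor on all arrays of any group. The part of these markers in the course of Igf2 and Igfbp2 was not tested. The brain marker mean had r = 0.252 with Igf2 (rho 0.236, permutation p = 0.0122, adjusted 0.0196), and the array level had 0.354 (rho 0.385, p = 0.00502, adjusted 0.010). The osteoblast and osteocyte mean had r = 0.062 with Igf2 (p = 0.622) and 0.087 with Igfbp5 (p = 0.431), and the array level had 0.081 with Igfbp2 (p = 0.508), all by permutation.

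**Figure D5:**
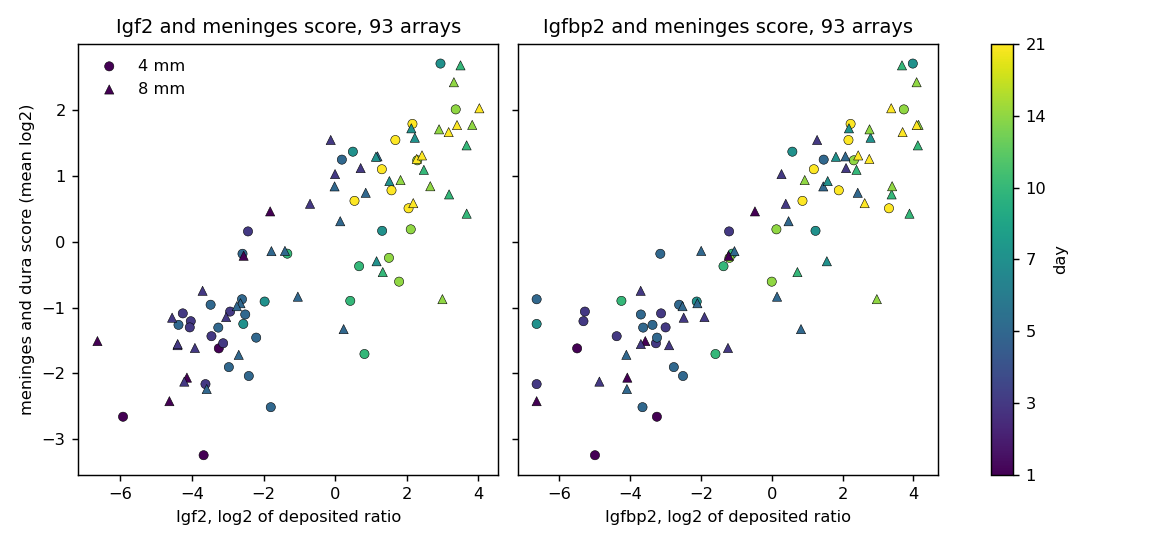
Mean log2 value of 7 meninges and dura markers against the log2 deposited ratio of Igf2 (left) and Igfbp2 (right) on the 93 arrays; circles are 4 mm and triangles 8 mm defects, coloured by day. Within groups r was 0.716 for Igf2 and 0.731 for Igfbp2, and single arrays lie off this relation, such as rat 14 of 8 mm day 14 with Igf2 at 3.0, Igfbp2 at 2.97 and a marker mean of -0.87.

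Of 48 other genes of the pathway, 43 were measured. Against day 1, 3, 10, 8, 6, 5 and 6 of the 43 were higher at days 3, 5, 7, 10, 14 and 21. The shares of all genes were 5.97%, 17.3%, 16.6%, 10.4%, 12.6% and 13.4%. The list was thus called higher at a rate near that of all genes. At days 7, 10, 14 and 21, 1, 1, 4 and 7 were lower, beside 4.84%, 6.15%, 8.41% and 12.8% of all genes. The median change of the list was 0.27, 0.53, 0.35, 0.13, -0.16 and 0.0035 over these days, beside the medians of all genes given above. For single genes of the list, tests are given only among the up to 5 called with the largest change in a comparison. A day left out for a gene need not be one on which it failed the test. Pappa, the protease that cleaves Igfbp4 and Igfbp5, was higher at each of these days, by 2.14 ± 0.64 at day 3 (limma, adjusted p = 0.0247), 3.15 ± 0.63 at day 5 (adjusted p = 5.67e-05) and 3.17 ± 0.69 at day 21 (adjusted p = 0.000254). Stc1, a stanniocalcin that inhibits this protease, was higher at days 5, 7 and 10 (2.22, 2.21 and 1.91, adjusted p = 0.000783, 0.00402 and 0.0194). It fell from day 7 to 21 by 1.71 (adjusted p = 0.0188). Grb14 was higher by 1.93, 2.36, 3.37, 3.65 and 3.24 at days 3, 5, 7, 10 and 21 (limma, adjusted p from 1.25e-05 at day 10 to 0.0245 at day 3). Of its 8 arrays of day 1, 2 stood at the floor. At day 14 the Grb14 means were 1.80 in 8 mm and -2.11 in 4 mm defects, beside -2.67 at day 1 over both sizes. H19, the noncoding RNA of the imprinted locus that it shares with Igf2, was higher by 1.86, 2.92, 3.34, 4.05 and 3.36 at days 3, 5, 7, 10 and 14 (adjusted p from 2.29e-10 at day 10 to 0.00161 at day 3). It fell from day 14 to day 21 by 1.46 ± 0.41 (adjusted p = 0.0480), where Igf2 had a difference of -0.33 (adjusted p = 0.832). The H19 mean over both sizes was -0.86 at day 21, still above the -2.76 of day 1.

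Pathway genes that were lower included binders of Igf2 mRNA and signalling genes. Igf2bp1 was lower at day 21 than at day 1 (-4.55 ± 1.40, adjusted p = 0.0104), and so was Hmga2, a chromatin protein known to activate Igf2bp2 (-4.79 ± 1.14, adjusted p = 0.000795). Each had 7 of 12 day 21 arrays at the floor, so that these sizes depend on where the floor lies. Igf2bp2 fell from day 7 to 21 by 1.66 ± 0.39 (adjusted p = 0.00162). Irs1, the adaptor below the IGF1 receptor, was lower at day 14 than at day 1 (-3.25 ± 0.78, adjusted p = 0.00111). Eif4ebp1, a repressor of translation under mTOR control, was lower at day 10 (-1.96 ± 0.45, adjusted p = 0.000814). From day 7 to 21, 8 of 43 were lower and 0 higher, beside 12.9% and 3.56% of all genes. Their median was -0.39 beside -0.43 for all genes. Between sizes 3 of 43 were higher in 8 mm defects at day 14, with 1.52% of all genes higher. These were Grb14 (3.91 ± 0.81, adjusted p = 0.00225), Shc1 (1.73, adjusted p = 0.0303) and Foxo1 (1.19, adjusted p = 0.0470). For Grb14, 1 of the 5 arrays of 4 mm defects stood at the floor and the groups overlapped. At day 21 Pik3r1 (-3.62, adjusted p = 0.0388, 5 of 6 arrays of 8 mm defects at the floor) and Mtor (-1.47, adjusted p = 0.0216) were lower, with 1.86% of all genes lower. Grb14 is an adaptor that damps insulin receptor signalling, Shc1 and Pik3r1 couple receptors to Ras and to phosphoinositide 3-kinase, and Mtor is the kinase of the growth pathway.

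As a description over the 14 group means, Igf2 had a Pearson r of 0.952 with Igfbp2 and 0.937 with Igfbp5. Among 5408 genes never at the floor, the patterns most like Igf2 were those of Slc24a3 (r = 0.971), Psmf1 (0.967) and Slc39a4 (0.964). For Igfbp2 they were Gsta4 (0.974), Slc16a11 (0.954) and Slc24a3 (0.953), and for Igfbp5 Tsc22d1 (0.976), RGD1566137 (0.971) and Ccn3 (0.969). Igfbp6 was nearest to Pdlim2, Spon2 and Cpq (0.968 to 0.969), Igf2r to Rpl29 (0.982) and Igfbp4 to Itgb1 (0.926). Igf1r, Igfbp3 and Igf1 were nearest to Ap1b1 (0.900), Egln1 (0.883) and Tbc1d9b (0.770). These group means share their arrays and array levels.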

How the data were processed

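Total RNA of each tissue plug was labelled with Cy3 and hybridised to a 1-colour Agilent rat whole genome array, per the labels' protocols. The deposited table gives 1 linear ratio per probe and array. For 87.8% of probes the median across arrays is 1 and no value lies under 0.01, as read from the values. How the authors scaled and floored these ratios is not given in the sources used here, and the scale between arrays stays unknown. The tests had been planned for log values, and since the table holds ratios their log2 was taken, with no pseudocount.

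Of the 41090 probes, 20932 had 1 gene symbol in the platform annotation and 20158 had none. Of the named probes, 17424 were matched to RefSeq (GRCr8) by accession, and 2316 symbols were updated. A gene with several probes (3880 of 15975) was represented by the probe with the largest interquartile range.

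The 14 groups of size and day entered 1 linear model (lmFit and eBayes of limma 3.58.1, R 4.3.3), with days averaged over both sizes. Tests were two-sided, adjusted by Benjamini-Hochberg over all 15975 genes within each of 23 comparisons, and called at an adjusted p under 0.05. The fit was tested on simulated data. Fold ratios are 2 to the power of the log2 difference.

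All 9 members are named. Of the other pathway genes, values are given for some of the up to 5 called with the largest change in a comparison. The likeness search took the 3 genes with the highest r. Members and lists were chosen with earlier results of these data known. Alternatives covered scaling, the floor, filters, probe choice, weights, the arrays in the fit and a replicate block. Testing each probe singly and each day against the day before were added after seeing the data. The 8 relations between arrays within groups were not among the planned tests either.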

Additional observations from a re-analysis of the deposited data

Results flagged for a closer look

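For each member the 10 groups of 4 to 10 arrays were searched, 90 sets of values in all that share their arrays. In 4 of these sets an array lay far from the others of its group, while chance gives about 1 in 20. Igf1 was -1.15 in rat 22 of 4 mm day 3, where the nearest of the other arrays read -0.08 (n = 8). Igfbp2 was -4.25 in rat 12 of 4 mm day 10, the nearest being -1.59 (n = 4). Igfbp4 was -0.70 in rat 10 of 8 mm day 7, the nearest being -0.01 (n = 5). Igfbp6 was -1.52 in rat 17 of 4 mm day 14, the nearest being 0.50 (n = 5). The same array of rat 17 was the one with Igfbp4 at the floor and the lowest of its group in Igf2, Igfbp2, Igfbp3, Igfbp5 and Igf2r.

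In 4 cases every array of 8 mm defects lay on one side of the 4 mm mean at one day and on the other side at another day, and the difference between these days was not tested on its own. The log2 difference of Igf1 was -0.69 at day 1 and 1.47 at day 14, that of Igfbp3 was -0.75 at day 3 and 0.92 at day 14, and that of Igfbp4 was -1.0 at day 1 and -0.71 at day 7 against 1.94 at day 14. Over all days the interaction of size and day had adjusted p = 0.809, 0.529 and 0.177 for these 3 genes (limma). Rat 17 was the lowest array of the 4 mm day 14 group in Igfbp3 (-2.19) and Igfbp4 (-6.64) and lowers the mean used there. For Igf1 at day 1, the 8 mm mean lay above the 4 mm mean with A_44_P126021 (-1.99 against -2.35) and A_44_P366723 (-1.38 against -1.67). It lay below with A_44_P421502 (-0.50 against -0.31). No rate expected by chance was worked out for the pairs of days searched.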

How the results depend on the processing

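Of 214 counts of members called under other settings, 186 stayed within 1.5 times the reported count. The 186 include counts of 0 that stayed 0 (sizes at days 1, 3, 5, 7 and 21 and the interaction). The share is thus not one of the called results alone. Leaving out the less variable genes kept 3 of the 9 members in the test, and the counts were then 0, 2, 3, 3, 3 and 3 for days 3 to 21 against day 1, 1 for day 21 against day 7, 3 for the days together in each size, and 0 for the sizes at days 10 and 14. Quantile normalization gave 2 for day 21 against day 7, 0 for the sizes at days 10 and 14, and 1 for the mean over days. For the sizes, array weights gave 2 at day 7 and 0 at days 10 and 14. Without the arrays of low level there was 1 at day 7, 0 at day 10 and 1 for the mean. Raising values to 0.25 gave 2 at day 10 and 0 at day 14, only the groups compared gave 0 at both, the probe with the fewest values at the floor gave 0 at day 14, and leaving out the arrays of high brain score gave 0 at day 14 and 1 for the mean. The cause of these shifts was not tested. Leaving out 1 array of the groups of 3 to 5 gave counts of 1 to 4, 4 to 6, 5 to 6, 4 to 6, 4 to 5 and 4 to 5 for days 3 to 21 against day 1, 4 to 6 for day 21 against day 7, 0 to 1 for the sizes at days 10 and 14, 1 to 2 for their mean, 6 to 8 for the days together in 4 mm and 8 in 8 mm defects. For Igfbp4 the probe with the fewest floor values turned day 14 against day 1 to 0.90 (limma, adjusted p = 0.0254), as did A_43_P16767 over all probes (0.90, adjusted p = 0.0320), and for Igfbp5 the probe A_44_P285534 turned day 7 against day 5 to -0.58.

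With the rat number as a replicate block the counts were 3, 5, 6, 6, 5 and 5 against day 1, 4 for day 21 against day 7, 1 for the sizes at days 10 and 14 and 2 for their mean, as reported. Deviations of 34 pairs of arrays with the same day and rat number had a median r of 0.0056 (from -0.10 to 0.33). For 316 pairs of other numbers it was -0.0025 (from -0.17 to 0.26). An r above 0.1 was found in 3 of the 34 and 10 of the 316 pairs. The main fit did not pair the arrays by number. These correlations cannot tell whether arrays of the same number came from the same animal. The median change of all genes from day 7 to day 21 was -0.43 as deposited, -0.16 with each array centred and -0.13 with quantile normalization.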
